A study of Mus musculus with 11 samples.

Results

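The hepatic drug transporters described here are 8 of the 31053 genes listed for each mouse liver section. They were chosen by name from the gene symbols of the deposited feature lists, and all 8 passed the filter on low counts. Slco1a1, Slco1a4 and Slco1b2 are uptake carriers, Abcc2, Abcg2 and Abcb1a are exporters of the canalicular membrane, and Abcc3 and Abcc4 are exporters of the basolateral membrane.

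Spatial gene expression was measured in 11 sections of mouse liver with the Visium assay, in which barcoded spots on a slide capture the 3′ ends of polyadenylated RNA and each captured molecule is counted once by a unique molecular identifier (UMI). Per the labels, 3 sections came from uninjured liver at 0 h (named 2, 3 and 4), 2 from 24 h (A and B), 2 from 36 h (A and B) and 4 from 48 h (A to D). Per the study's methods, the injury was a single intraperitoneal dose of acetaminophen (APAP) given to fasted male C57BL/6JCrl mice, no group carried a transgene or gene deletion, and 1 mouse was used per time point. The labels do not tie sections to mice, so n counts sections, every p measures only the spread between sections, and mouse and time cannot be told apart. Whether the 0 h mice were fasted is not given in the sources used here.

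A spot is a small region that holds several cells, or parts of cells, of different types. After the spot filter, 25136 spots remained, 1490 to 3466 per section, and the sections held 31292663 to 67045372 UMIs. The 5 hepatocyte markers Alb, Ttr, Hp, Hnf4a and Apoa1 summed to 107268–111967 CPM (counts scaled to a common library total) at 0 h and 72425–98470 CPM in the injured sections, so the sections carried the markers of the labelled tissue. The 4 mononuclear phagocyte markers summed to 409–434 CPM at 0 h, 553–595 CPM at 24 h, 448–623 CPM at 36 h and 722–1327 CPM at 48 h. The 7 mesenchyme markers summed to 250–286 CPM at 0 h and 674–1469 CPM at 48 h, and the 5 neutrophil markers rose from 1.98–7.88 CPM in the 0 h sections to 20.9–136 CPM in the injured ones. Single markers of a list did not all move together. Against 0 h, the log2 fold changes of the hepatocyte markers ranged from -1.15 to 2.70 at 24 h, -0.83 to 1.74 at 36 h and -0.82 to 1.17 at 48 h. Those of the phagocyte markers ranged from -0.58 to 1.60, -0.32 to 2.07 and 0.07 to 2.53. No marker of these lists was at 0 in any group, and the part that these other cells played in the values below was not tested. In such tissue sums, fewer hepatocytes and less RNA per hepatocyte cannot be told apart.

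Hepatocytes clear drugs by a relay of membrane carriers. Organic anion transporting polypeptides on the sinusoidal side take up bile acids, conjugated bilirubin and many drugs from blood. After conjugation inside the cell, ATP-driven pumps on the canalicular side send the products into bile, whereas pumps on the basolateral side return them to blood. The transcription factor NRF2, which is activated by electrophiles such as the reactive metabolite of APAP, is known to act on several of the exporter genes, and uptake carriers are known targets of nuclear receptors and growth hormone signalling.

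The uptake carriers are neighbours on mouse chromosome 6 (GRCm38). Slco1b2 spans chr6:141629518-141686646 on the plus strand, Slco1a4 spans chr6:141805440-141856199 on the minus strand and Slco1a1 spans chr6:141907282-141946962 on the minus strand. The exporters lie elsewhere, with Abcg2 at chr6:58584523-58695676, Abcb1a at chr5:8660077-8748575 and Abcc2 at chr19:43782192-43840740 on the plus strand, and Abcc3 at chr11:94343295-94392997 and Abcc4 at chr14:118482692-118706219 on the minus strand. None of the words of 50 bases in the last 500 bases of the members' coding transcripts was present in a transcript of another gene (0.0% for each member). Copies that differ within each such word, or that are not annotated, were not searched for.

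The promoter sequences of the 3 neighbouring uptake carriers and of Abcc4 are shown because the main changes described below concern these 4 genes. Each line holds the 250 bases before a transcription start, 5′ to 3′ on the strand of the gene, as given by RefSeq for GRCm38.p6, at chr6:141629268-141629517 for Slco1b2, chr6:141946963-141947212 for Slco1a1, chr6:141856221-141856470 for Slco1a4 and chr14:118706220-118706469 for Abcc4. Capitals mark every match, on either strand, to 3 motifs: the antioxidant response element core TGACNNNGC bound by NRF2, the STAT motif TTCNNNGAA and the nuclear receptor motif AGGTCA.
Slco1b2: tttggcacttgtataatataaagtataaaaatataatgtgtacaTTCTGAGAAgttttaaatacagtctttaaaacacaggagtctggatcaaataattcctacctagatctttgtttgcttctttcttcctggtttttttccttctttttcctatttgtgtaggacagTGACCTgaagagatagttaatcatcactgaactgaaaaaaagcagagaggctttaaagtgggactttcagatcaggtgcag
Slco1a1: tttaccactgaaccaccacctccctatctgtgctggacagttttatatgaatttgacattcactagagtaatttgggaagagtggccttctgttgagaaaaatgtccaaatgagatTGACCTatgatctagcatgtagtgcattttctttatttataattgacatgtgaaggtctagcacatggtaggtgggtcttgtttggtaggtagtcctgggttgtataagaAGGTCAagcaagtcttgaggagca
Slco1a4: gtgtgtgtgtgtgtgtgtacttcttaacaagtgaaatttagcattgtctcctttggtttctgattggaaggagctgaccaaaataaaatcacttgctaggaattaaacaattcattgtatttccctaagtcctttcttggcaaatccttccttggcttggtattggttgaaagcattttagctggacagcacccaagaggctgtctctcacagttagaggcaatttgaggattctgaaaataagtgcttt
Abcc4: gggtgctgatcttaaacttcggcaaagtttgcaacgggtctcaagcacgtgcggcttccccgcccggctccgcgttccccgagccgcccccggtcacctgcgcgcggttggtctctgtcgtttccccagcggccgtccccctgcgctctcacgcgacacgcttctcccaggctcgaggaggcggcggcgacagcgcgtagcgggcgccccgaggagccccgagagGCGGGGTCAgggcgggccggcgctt

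Among the 32851 RefSeq promoter windows of the same length (27025 genes), the antioxidant core was present in 10.16%, the STAT motif in 7.02% and the nuclear receptor motif in 14.02%. In Slco1b2, the STAT match lay 206–198 bases before the start and the nuclear receptor match on the opposite strand 81–76 bases before it. Slco1a1 held the nuclear receptor motif at 134–129 bases on the opposite strand and at 24–19 bases on its own strand, and the Slco1a4 window held none of the 3. In Abcc4, the antioxidant core lay on the opposite strand 25–17 bases before the start. Windows not printed here also held this core on the strand of the gene. These were the second Abcc4 window (23–15 bases before its start) and the Abcc2 window (98–90 bases). No match overlapped another. These are matches of letters and no factor binding was measured. Of the 8 members, 7 had promoter entries, 10 in all.

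At 24 h, the uptake carriers were the members with the largest losses. Slco1b2, the mouse counterpart of the human hepatocyte carriers OATP1B1 and OATP1B3, was lower at every injured time point, and its loss was largest at 24 h. Its level, in CPM scaled by the trimmed mean of M values (TMM), was 700, 631 and 578 in the 0 h sections 2, 3 and 4, 152 and 122 in the 24 h sections A and B, 288 and 192 in the 36 h sections A and B, and 316, 336, 290 and 353 in the 48 h sections A to D. No injured section reached the lowest 0 h section, and no 24 h section reached the lowest 36 h section. The log2 fold change against 0 h was -2.21 ± 0.19 (SE) at 24 h (adjusted p = 3.49e-05, edgeR quasi-likelihood test with Benjamini-Hochberg adjustment over 14821 genes), -1.41 ± 0.19 at 36 h (adjusted p = 0.000814) and -0.97 ± 0.15 at 48 h (adjusted p = 0.000475). The group levels were 636 ± 61.4 CPM (SD, n = 3) at 0 h, 324 ± 26.9 (n = 4) at 48 h, 240 ± 67.6 (n = 2) at 36 h and 137 ± 21.2 (n = 2) at 24 h, in that order. Of the neighbours in this order, 48 h and 36 h did not differ past the threshold. The 3 calls against 0 h were kept when any 1 of the 11 sections was left out.

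Slco1a1, a sinusoidal carrier of organic anions with known male-predominant expression in mouse liver, stood within 311–318 CPM in the 3 uninjured sections. The injured sections were all lower and were spread more widely. Its level was 101 and 44.1 CPM in the 24 h sections A and B, 160 and 53.5 CPM in the 36 h sections A and B, and 44.0, 70.6, 32.6 and 121 CPM in the 48 h sections A to D. The fall was 4.32-fold at 24 h (a log2 fold change of -2.11 ± 0.64, adjusted p = 0.0243) and 4.69-fold at 48 h (-2.23 ± 0.50, adjusted p = 0.00553). At 36 h the change of -1.56 ± 0.62 did not pass the threshold (adjusted p = 0.0863). With no filter on low counts the 24 h call was lost (-2.16, adjusted p = 0.0602). Without the 24 h section B it was also lost (-1.64, adjusted p = 0.161), and without the 36 h section A the 36 h change passed (-2.56, adjusted p = 0.0449), as it did with only the 0 h and 36 h sections in the fit (-1.56, adjusted p = 0.0489). The 48 h call was kept in all 11 fits that left out a section. The levels at the 3 injured time points did not differ from each other past the threshold.

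Slco1a4, which carries organic anions and cardiac glycosides and is a known target of the xenobiotic receptor PXR, fell and then rose past its uninjured level. The 0 h sections 2, 3 and 4 had 26.3, 18.3 and 10.2 CPM, the widest relative spread of any uptake carrier at 0 h. Both 24 h sections were lower, at 3.23 and 3.57 CPM. The 36 h sections A and B had 24.1 and 59.6 CPM, and the 48 h sections A to D had 63.6, 46.5, 43.2 and 24.5 CPM. The 36 h section A and the 48 h section D overlapped the 0 h range, whereas the other later sections lay above it. Its log2 fold change against 0 h was -2.43 ± 0.55 at 24 h (adjusted p = 0.00637), 1.19 ± 0.47 at 36 h (adjusted p = 0.0843) and 1.28 ± 0.41 at 48 h (adjusted p = 0.0305). The 24 h call was lost without the 24 h section A (-2.36, adjusted p = 0.0543), and the 36 h change passed without the 36 h section A (1.70, adjusted p = 0.0362). The 48 h call was lost when 0 h section 3 or 4 or 48 h section A, B or C was left out (log2 0.98 to 1.29, adjusted p 0.0562 to 0.0927), and with no filter on low counts (1.27, adjusted p = 0.071). With DESeq2 the 36 h change passed (1.17, adjusted p = 0.0294). From 24 h to 36 h Slco1a4 rose 12.3-fold (log2 3.62 ± 0.60, adjusted p = 0.00751), a call that was lost without the 24 h section A (adjusted p = 0.0627).

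Abcc2 (MRP2), the pump that moves glutathione and glucuronide conjugates into bile, was lower at 24 h and did not differ past the threshold at 36 h or 48 h. Its level was 126, 112 and 98.5 CPM in the 0 h sections, 84.2 and 78.0 CPM at 24 h, 149 and 124 CPM at 36 h, and 135, 110, 116 and 117 CPM at 48 h. The 24 h sections lay below all others, and the 0 h and 48 h ranges overlapped. The log2 fold change was -0.47 ± 0.14 at 24 h (1.39-fold lower, adjusted p = 0.0206), 0.29 ± 0.14 at 36 h (adjusted p = 0.141, 95% interval 0.01 to 0.56) and 0.09 ± 0.12 at 48 h (adjusted p = 0.569, interval -0.14 to 0.31). The 24 h call was lost without 0 h section 2 (adjusted p = 0.0576), 24 h section A (0.0617) or 24 h section B (0.125).

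Abcg2 (BCRP), a canalicular pump for sulfated conjugates, was lower at every injured time point. It had 72.8, 78.1 and 76.8 CPM at 0 h, 42.3 and 35.5 CPM at 24 h, 55.2 and 41.9 CPM at 36 h, and 37.9, 35.1, 38.8 and 43.0 CPM at 48 h. The 0 h sections did not overlap with any injured section, and the injured time points overlapped with each other. The fall was 1.95-fold at 24 h (log2 -0.96 ± 0.14, adjusted p = 0.00046), 1.56-fold at 36 h (-0.64 ± 0.14, adjusted p = 0.00728) and 1.96-fold at 48 h (-0.97 ± 0.11, adjusted p = 0.000116). Without the 36 h section B the 36 h call was lost (-0.46, adjusted p = 0.0522), and the other 2 calls were kept in every such fit.

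Abcb1a encodes a P-glycoprotein that exports lipophilic and cationic drugs and was captured thinly, at 39 to 74 UMIs per 0 h section. It had 1.25, 1.36 and 1.10 CPM at 0 h, 1.76 and 2.07 CPM at 24 h, 6.98 and 2.25 CPM at 36 h, and 4.97, 2.60, 2.45 and 1.55 CPM at 48 h. Every injured section lay above the 0 h sections, and the 36 h section A stood far above its partner. The log2 fold change was 0.62 ± 0.53 at 24 h (adjusted p = 0.371), 1.89 ± 0.51 at 36 h (adjusted p = 0.0195) and 1.22 ± 0.44 at 48 h (adjusted p = 0.0453). Both calls were fragile. The 36 h call was lost without the 36 h section A (0.85, adjusted p = 0.232) or any single 0 h section (adjusted p 0.0526 to 0.0598), and the 48 h call was lost in 8 of the 11 fits that left out a section (log2 0.82 to 1.29, adjusted p 0.0604 to 0.126), with no filter on low counts (adjusted p = 0.0643) and with only the phagocyte-poor spots summed (adjusted p = 0.0735).

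Abcc3 (MRP3), a basolateral pump for glucuronides that include the glucuronide of APAP, did not change past the threshold at any time. It had 116, 110 and 69.3 CPM at 0 h, 77.9 and 79.7 CPM at 24 h, 103 and 89.8 CPM at 36 h, and 101, 91.6, 91.1 and 90.8 CPM at 48 h. All injured values lay inside the 0 h range, whose breadth came from section 4. The log2 fold change was -0.32 ± 0.19 at 24 h (adjusted p = 0.191, 95% interval -0.68 to 0.04), -0.03 ± 0.18 at 36 h (adjusted p = 0.929, interval -0.39 to 0.33) and -0.07 ± 0.15 at 48 h (adjusted p = 0.73, interval -0.37 to 0.23). Without 0 h section 4, the 24 h value became -0.56 and passed (adjusted p = 0.00666).

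Abcc4 (MRP4), a basolateral pump for bile acids, glutathione and cyclic nucleotides, was the member that rose against 0 h at all 3 time points. It had 2.44, 3.20 and 2.29 CPM in the 0 h sections 2, 3 and 4 (81 to 174 UMIs per section), 8.17 and 7.11 CPM in the 24 h sections, 11.4 and 7.62 CPM in the 36 h sections, and 10.9, 5.07, 13.9 and 6.49 CPM in the 48 h sections A to D. Each injured section lay above each 0 h section, and the injured time points overlapped with each other. The rise was 2.88-fold at 24 h (log2 1.53 ± 0.39, adjusted p = 0.00977), 3.58-fold at 36 h (1.84 ± 0.38, adjusted p = 0.00691) and 3.42-fold at 48 h (1.78 ± 0.34, adjusted p = 0.0021). The 24 h call was lost without the 24 h section A (1.42, adjusted p = 0.0579). The 36 h and 48 h calls were kept in all 11 fits that left out a section. No injured time point differed from another past the threshold.

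**Figure D1:**
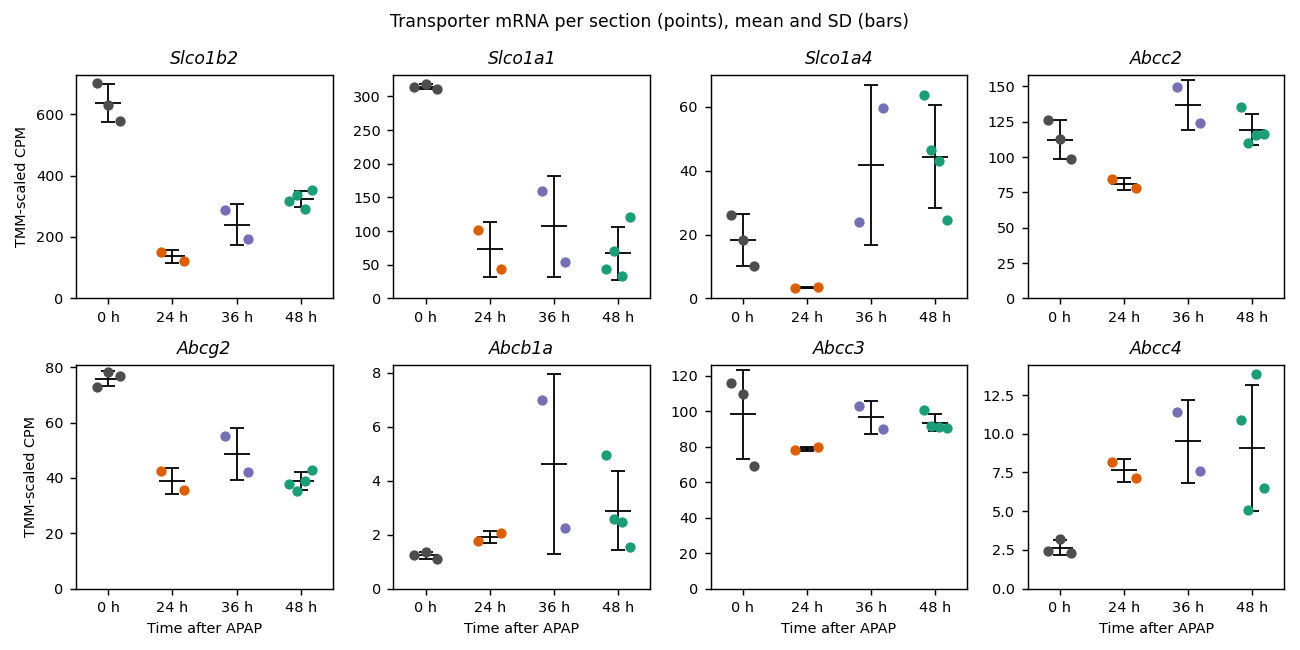
Levels of the 8 transporters in each section. The vertical axis is TMM-scaled CPM with its own range in each panel, the horizontal axis is time after APAP, points are sections and bars give the mean and SD of a group (n = 3, 2, 2 and 4 sections). For Slco1b2, Slco1a1 and Abcg2 every injured section lies below the 0 h sections, and for Abcc4 and Abcb1a every injured section lies above them. The share of all genes set apart in this way was not counted.

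Counted together, 1 member was called higher and 5 lower at 24 h, when 23.1% of the genes tested were called higher and 18.6% lower. At 36 h, 2 were called higher and 2 lower, beside 16.8% and 12.4% of the genes tested. At 48 h, 3 were called higher and 3 lower, beside 23.3% and 20.9%. The median log2 fold change of the 8 members was -0.72 at 24 h, 0.13 at 36 h and 0.01 at 48 h, and that of all genes tested was 0.05, 0.05 and 0.01. By role, the 3 uptake carriers were all called lower at 24 h, whereas at 48 h Slco1b2 and Slco1a1 were lower and Slco1a4 was higher. The basolateral exporters were split at each time, with Abcc4 called higher and Abcc3 not called.

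These values depend on the reference to which a section is scaled. With libraries scaled by their total counts in place of TMM, the median of all genes tested shifted to 0.37 at 24 h, 0.49 at 36 h and 0.54 at 48 h, and the share of calls that were higher went from 55.4% to 80.4%, from 57.5% to 94.1% and from 52.7% to 93.7%. Under that scaling, Slco1b2 kept its fall at 24 h, 36 h and 48 h (log2 -1.89, -0.96 and -0.45) and Abcc4 kept its rise (1.85, 2.28 and 2.30). The 24 h fall of Abcc2 was lost (-0.14, adjusted p = 0.443), as was the 36 h fall of Abcg2 (-0.20, adjusted p = 0.279). The 36 h rise of Slco1a4 passed under that scaling (1.61, adjusted p = 0.0173, edgeR). Abcc2 was then called higher at 36 h and 48 h (0.73 and 0.61), and Abcc3 turned to 0.00 at 24 h, 0.41 at 36 h and 0.45 at 48 h, of which the last passed (adjusted p = 0.0296). These values of Abcc2 and Abcc3 at 36 h and 48 h lay near the shifted median of all genes.

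**Figure D2:**
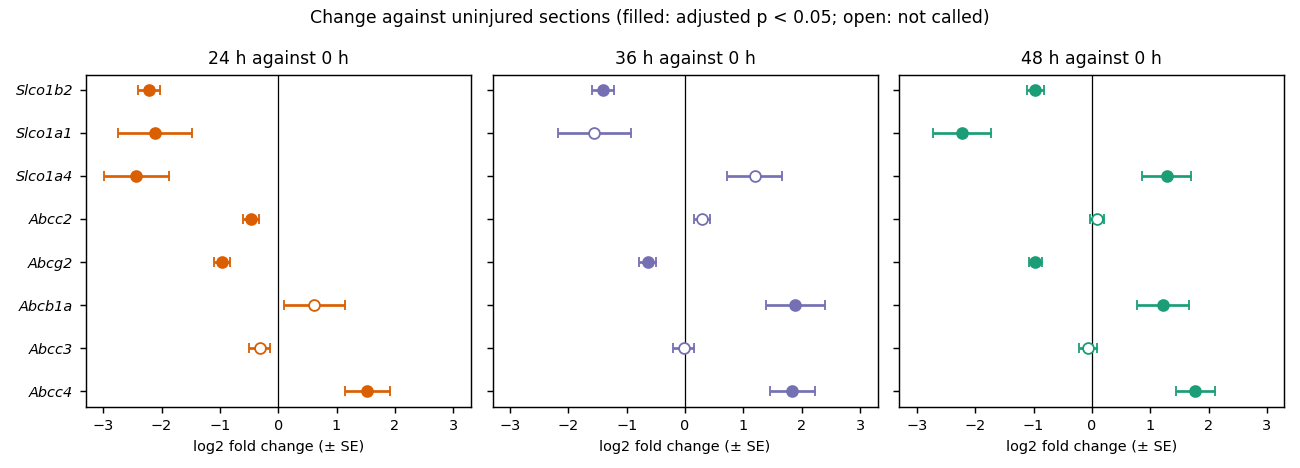
Log2 fold change of each transporter against 0 h at 24 h, 36 h and 48 h. Points are estimates of the edgeR fit over 11 sections, bars are standard errors, filled points passed an adjusted p of 0.05 and open points did not. Slco1b2 and Abcg2 lie left of zero and filled in all 3 panels, Abcc4 lies right of zero and filled in all 3, and Slco1a4 moves from -2.43 at 24 h to 1.28 at 48 h.

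Between injured time points, 3 members were called higher at 36 h than at 24 h, beside 7.04% of the genes tested. These were Slco1a4, Slco1b2 (log2 0.81 ± 0.20, adjusted p = 0.0229) and Abcc2 (0.76 ± 0.15, adjusted p = 0.0125). With only the 4 sections of these 2 time points in the fit, all 3 calls were lost (adjusted p = 0.133, 0.207 and 0.161). The Slco1b2 call was lost without the 24 h section A or B or the 36 h section A (adjusted p 0.0623 to 0.12), and the Abcc2 call without the 24 h section A or B (adjusted p 0.061 and 0.0655). The same 3 genes were called higher at 48 h than at 24 h, beside 16.2% of the genes tested: Slco1a4 13.1-fold (log2 3.71 ± 0.57, adjusted p = 0.00156), Slco1b2 2.36-fold (1.24 ± 0.18, adjusted p = 0.000883) and Abcc2 1.47-fold (0.56 ± 0.13, adjusted p = 0.01). The Abcc2 call was lost without the 24 h section A or B (adjusted p 0.0501 and 0.0799). Between 48 h and 36 h no member was called by edgeR, beside 3.05% of the genes tested, and the closest were Abcg2 (-0.33 ± 0.13, adjusted p = 0.182) and Slco1b2 (0.43 ± 0.17, adjusted p = 0.187). These comparisons share sections with those against 0 h and are not independent of them.

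Other transporters of the liver were counted on the same scale. Of 9 further uptake carriers, 6 were called lower at 24 h, 4 at 36 h and 6 at 48 h, beside 18.6%, 12.4% and 20.9% of the genes tested. None was called higher at any of these times, beside 23.1%, 16.8% and 23.3%. Their median log2 fold change was -1.56, -0.64 and -0.90. Slc10a1 (NTCP), the main sodium-dependent importer of bile acids, stood at 745 ± 102 CPM at 0 h and at 157 ± 61.1 at 24 h, 312 ± 27.0 at 36 h and 236 ± 43.9 at 48 h (log2 -2.25, -1.25 and -1.66, all called). Slc22a5, the carnitine carrier, was lower at 24 h (-2.0) and 48 h (-0.94), and Slco2b1 was lower at 36 h (-0.64). Slc22a3, chosen after its values were seen, had 25, 37 and 30 UMIs in the 0 h sections and 0 to 2 in each injured section. With that gene set to 3 UMIs per injured section, the list's medians stayed at -1.56, -0.64 and -0.90.

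Of 8 further canalicular transporters, 1 was called higher and 4 lower at 24 h, and 1 higher and 2 lower at both 36 h and 48 h, with medians of -1.23, 0.00 and -0.40. Abcb11 (BSEP), the bile salt export pump, stood at 510 ± 54.9 CPM at 0 h and at 121 ± 41.1 at 24 h, 125 ± 80.2 at 36 h and 273 ± 37.4 at 48 h (log2 -2.07, -2.02 and -0.90, all called). Abcb4, which moves phosphatidylcholine into bile, was lower at all 3 times (log2 -1.56, -1.03 and -0.87). Slc47a1 (MATE1), a canalicular exporter of cations, was lower at 24 h (-1.48). The gene called higher at each time was Abcb1b, the close relative of Abcb1a, which is outside the rule for named genes and was chosen after its values were seen (8, 22 and 8 UMIs in the 0 h sections and 34 to 142 in injured ones, log2 2.0, 2.46 and 2.53).

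Of 6 further basolateral exporters, 5 were tested, and Slc51a was not, since it was near 0. Abcc5, an exporter of cyclic nucleotides, was higher at all 3 times (log2 0.81 ± 0.16, 1.19 ± 0.16 and 1.39 ± 0.14), from 2.97 ± 0.249 CPM at 0 h to 7.79 ± 0.798 CPM at 48 h. Abcc1, chosen after its values were seen, was also higher at all 3 (1.47, 1.11 and 1.62). Abcc6 was lower at 24 h (-0.94) and 48 h (-0.64). The counts were 2 higher and 2 lower at 24 h, beside 23.1% and 18.6% of the genes tested. They were 2 and 0 at 36 h, beside 16.8% and 12.4%, and 2 and 1 at 48 h, beside 23.3% and 20.9%. The medians were 0.17, -0.15 and 0.05.

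Of 12 receptors and transcription factors known to act on transporter genes, 1 was called higher and 2 were called lower at 24 h, beside 23.1% and 18.6% of the genes tested. At 36 h, 1 was higher and 0 lower, beside 16.8% and 12.4%. At 48 h, 3 were higher and 3 lower, beside 23.3% and 20.9%. These counts were near or below the shares of all genes. The medians of the 12 were -0.09, -0.03 and -0.20. Keap1, which encodes the NRF2 inhibitor, was higher at 24 h (log2 0.38 ± 0.13), and Nfe2l2, which encodes NRF2 itself, was lower at 24 h (-0.50 ± 0.17) and higher at 48 h (0.40 ± 0.14). Nr1i3, which encodes the xenobiotic receptor CAR, was higher at 36 h (0.71 ± 0.20) and 48 h (0.48 ± 0.17). Ppara was lower at 24 h (-0.85) and 48 h (-1.24), and at 48 h Rxra (-0.49) was lower and Ahr was higher (0.76). Of 5 enzymes that NRF2 is known to induce, 3 were called higher at 24 h, beside 23.1% of the genes tested. At both 36 h and 48 h, 2 were called higher, beside 16.8% and 23.3%, and none of the 5 was called lower at any time. Srxn1 (sulfiredoxin) rose from 28.9 ± 1.23 CPM at 0 h to 239 ± 27.0 at 24 h, 100 ± 5.06 at 36 h and 91.3 ± 36.8 at 48 h, and Nqo1 from 3.54 ± 0.352 to 10.9 ± 2.98, 6.83 ± 2.16 and 7.75 ± 1.94 CPM. The medians of these 5 enzymes were 0.57, -0.04 and 0.24.

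Across spots, the members differed in how often they were caught. With each spot thinned to 5000 UMIs, at least 1 Slco1b2 UMI was present in 82.0–87.3% of spots in the 0 h sections, 43.3–50.2% at 24 h, 60.5–76.8% at 36 h and 76.8–81.9% at 48 h. Without thinning the shares were 94.0–99.3%, 81.7–89.0%, 91.1–95.3% and 96.0–99.6%. For Abcc4 the thinned shares were 0.967–1.47% in 0 h sections, 2.91–4.09% in those of 24 h, 3.90–6.15% at 36 h and 2.55–8.08% at 48 h, so it was absent from most spots in every section at this depth. Unthinned, its shares were 3.35–6.21%, 11.8–13.1%, 11.8–16.5% and 14.6–27.1%, and no spot held more than 9 of its UMIs. Spots outside the tissue mask carried 10.7–24.9% of a section's UMIs. The CPM there, without TMM scaling, overlapped the range on tissue for Abcc2 at 0 h (84.1–104 against 77.1–99.9) and lay below it for Slco1b2 at 0 h (313–378 against 452–554) and for Abcb1a at 24 h (0.364–1.66 against 1.78–2.04). UMIs of the members were thus counted where there was no tissue, and how far this flattened the patterns below was not tested.

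In the uninjured lobule the members were not evenly placed. Spots of each section were ranked by 6 central vein markers (Glul, Cyp2e1, Oat, Cyp1a2, Slc1a2 and Lect2) minus 6 portal markers (Cyp2f2, Hal, Sds, Gls2, Hsd17b13 and Pigr), and the most central and the most portal of 3 equal parts were compared with the section as a block. At 0 h, 5 of the 8 members were called higher in central spots, beside 7.24% of the 13886 genes tested, and none was called lower. Slco1b2 had 1012, 913 and 836 CPM in the central spots of sections 2, 3 and 4 and 450, 424 and 355 CPM in their portal spots, so it was higher in the central spots of 3 of 3 sections (2.25-fold, log2 1.17 ± 0.07). Abcc2 (0.51 ± 0.05), Abcg2 (0.46 ± 0.05), Abcc3 (0.37 ± 0.05) and Slco1a1 (0.32 ± 0.04) were also higher in central spots. Slco1a4 (-0.15 ± 0.08), Abcc4 (0.15 ± 0.26) and Abcb1a (-0.63 ± 0.31) were not called.

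After injury the central minus portal difference became smaller or turned for the members that had it. The Slco1b2 levels were 149 and 109 CPM in central and 145 and 131 CPM in portal spots of the 24 h sections A and B. They were 288 and 184 CPM in central and 277 and 202 CPM in portal spots of the 36 h sections, and 264, 287, 244 and 328 CPM in central against 372, 386, 381 and 379 CPM in portal spots of the 48 h sections A to D. At 48 h, the central spots were therefore lower in 4 of 4 sections (log2 -0.44 ± 0.06). Against the contrast at 0 h, the central minus portal difference of Slco1b2 was lower by 1.27 ± 0.11 at 24 h, 1.21 ± 0.11 at 36 h and 1.61 ± 0.09 at 48 h on the log2 scale.

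At 24 h, Abcc4 was called higher (1.14 ± 0.22, adjusted p = 0.000443) and Slco1a1 lower (-0.46 ± 0.06) in central spots, beside 24.6% of the genes tested that were called in either direction. Abcc2, Abcc3 and Abcg2 were also called higher in central spots at 24 h under total-count scaling (0.38, 0.35 and 0.31) and with the marker lists of the study (0.26, 0.25 and 0.20), and the first 2 without thinning (0.19 and 0.20). At 36 h, 5 members were called lower in central spots, beside 11.2%: Slco1a4 (-0.49), Slco1a1 (-0.33), Abcg2 (-0.30), Abcc2 (-0.18) and Abcb1a (-0.72), of which Abcb1a changed sign without the 36 h section A (0.23), and Abcg2 (-0.26, adjusted p = 0.096) and Abcc2 (-0.10, adjusted p = 0.53) lost their calls without the 36 h section B. At 48 h, 6 were lower, beside 26.7%, from Slco1a4 (-0.90 ± 0.05) and Slco1a1 (-0.61 ± 0.04) to Abcc2 (-0.16 ± 0.04), and Abcb1a (-0.56) lost its call without the 48 h section A (-0.31, adjusted p = 0.198). Under total-count scaling, which shifted the median of all genes from 0.04 to 0.32 in this contrast, the 48 h values of Abcc2 and Abcg2 turned to 0.12 and 0.10, of which the first passed (adjusted p = 0.00356), and that of Abcb1a lost its call (-0.26), whereas Slco1a4 (-0.61), Slco1a1 (-0.33) and Slco1b2 (-0.16) kept theirs. At 36 h under that scaling, Slco1a4 kept its call (-0.29), those of Slco1a1 (-0.13), Abcg2 (-0.10) and Abcb1a (-0.52) were lost, Abcc2 turned to 0.02 and Abcc3 was called higher (0.22), as it was at 48 h (0.28). With the marker lists of the study, Abcc2 lost its calls at 36 h (-0.12, adjusted p = 0.164) and 48 h (-0.086, adjusted p = 0.0718).

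Abcc4 went the other way. At 0 h it had 2.39, 2.81 and 2.77 CPM in central and 2.32, 2.95 and 1.66 CPM in portal spots. At 24 h the central spots of sections A and B had 10.4 and 9.81 CPM and the portal spots 4.82 and 4.29 CPM. At 36 h the sections differed, with 16.2 against 5.93 CPM in section A and 7.28 against 7.09 CPM in section B, so the 36 h call (0.82 ± 0.20, adjusted p = 0.0059, beside 8.27% of genes called higher) rested on section A and was lost without it (0.03, adjusted p = 0.961). At 48 h the central spots of sections A to D had 14.2, 6.79, 19.0 and 9.20 CPM and the portal spots 6.71, 3.27, 8.97 and 4.03 CPM, higher in 4 of 4 sections (log2 1.10 ± 0.11), beside 32.5% of genes called higher.

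The change in the central minus portal difference from 0 h was itself tested. It was called lower for 5 members at 24 h (Abcc2, Abcg2, Abcc3, Slco1a1 and Slco1b2), beside 9.35% of the genes tested. At 36 h it was lower for 6, the same 5 and Slco1a4, beside 9.2%, and at 48 h for those 6, beside 20.3%. For Abcc4 it was higher at 48 h (0.95 ± 0.29, adjusted p = 0.0113), beside 18.7%, a call lost without 0 h section 2 (0.88, adjusted p = 0.082) or 3 (0.76, adjusted p = 0.169). Under total-count scaling, the calls for Slco1b2 (-1.09, -1.04 and -1.37) and Slco1a1 were kept at all 3 times, those for Abcc2 and Abcg2 at 36 h and 48 h only, that for Slco1a4 at 48 h (-0.49) but not at 36 h (-0.18, adjusted p = 0.293), and those for Abcc3 at none, and higher differences of Abcc4 (1.17) and Abcb1a (1.35) were called at 24 h. With zones from the marker lists of the study, the calls of Abcg2 (-0.25, adjusted p = 0.0501) and Abcc3 (-0.14, adjusted p = 0.274) at 24 h, of Slco1a4 at 36 h (-0.33, adjusted p = 0.101) and of Abcc4 at 48 h (1.05, adjusted p = 0.0519) were lost. The 24 h calls of Abcc2 (-0.23, adjusted p = 0.141) and Abcg2 (-0.33, adjusted p = 0.0732) were lost without the 24 h section B, that of Abcc3 without any single 0 h section, 24 h section B or 48 h section B (-0.12 to -0.25, adjusted p 0.0528 to 0.561), the 36 h call of Abcc3 without the 36 h section B (-0.30, adjusted p = 0.055), and that of Slco1a4 at 36 h without 0 h section 2 or 4 or either 36 h section (-0.26 to -0.44, adjusted p 0.0827 to 0.237). The contrast of the zone markers themselves also differed by time. The central markers summed to 3.42–3.84 times as much in central as in portal spots at 0 h, 2.0 times at 24 h, 1.45–2.21 times at 36 h and 1.42–2.12 times at 48 h. The portal markers summed to 0.397–0.415 times as much in central as in portal spots at 0 h, 0.383–0.431 times at 24 h, 0.403–0.537 times at 36 h and 0.351–0.388 times at 48 h, so the central markers lost contrast at all 3 injured times and the portal markers did not at 24 h or 48 h. In the central spots at 48 h, 5 of 5 hepatocyte markers were lower (-0.71 to -0.19) and 4 of 4 phagocyte markers higher (0.66 to 1.64), and the part of these shifts in the members' values was not tested. The 5 NRF2 enzymes were all called higher in central spots at 24 h (log2 0.18 to 1.32), beside 11.6% of the genes tested, and 0 of 5 at 0 h, beside 7.24%. At 36 h, 2 of the 5 were higher, beside 8.27%. At 48 h, 3 were higher and 1 was lower, beside 32.5% and 26.7%.

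**Figure D3:**
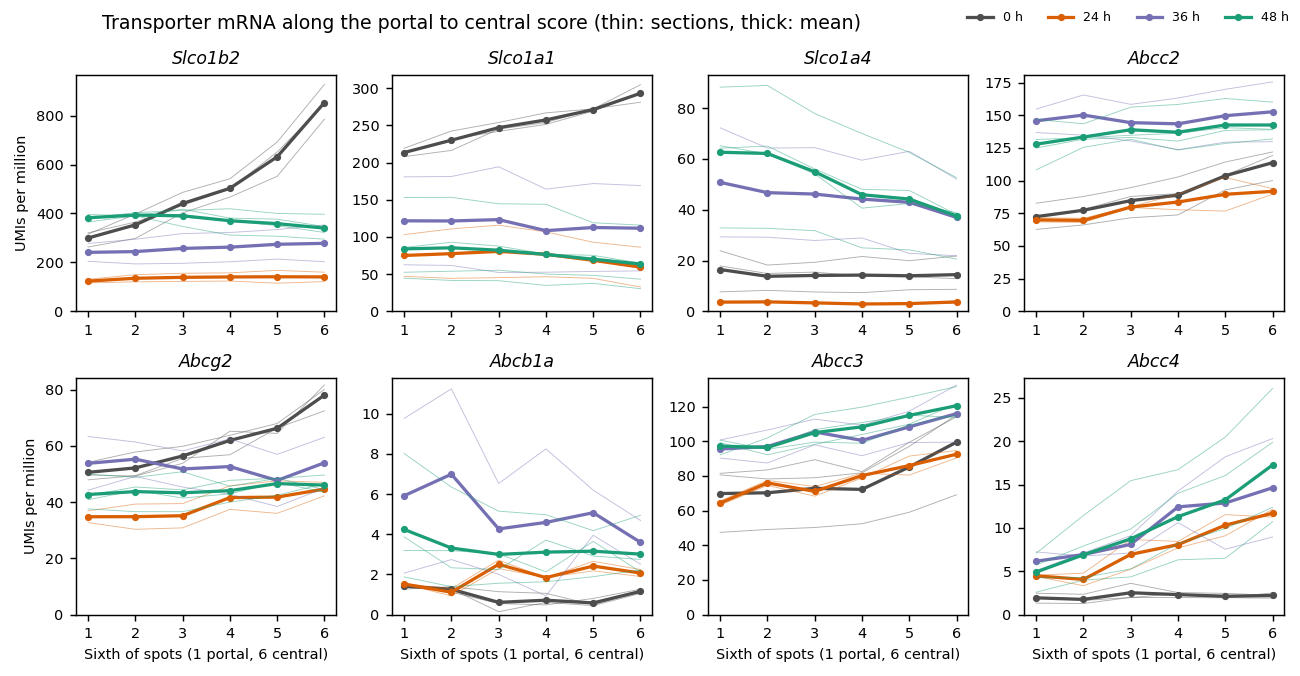
Levels of the transporters from portal to central spots. The horizontal axis gives 6 equal parts of the spots of a section, from the most portal (1) to the most central (6), the vertical axis gives CPM without TMM scaling, thin lines are sections and thick lines are means of a time point. Slco1b2 at 0 h climbs from a mean of 300 in part 1 to 853 in part 6, and its injured lines show no climb of that size. Under total-count scaling, its log2 difference of central against portal spots was 0.12 at 24 h, 0.17 at 36 h and -0.16 at 48 h. The mean Abcc4 line at 48 h climbs from 4.90 to 17.3.

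Spots were also ranked within a section by 4 mononuclear phagocyte markers (Lyz2, Csf1r, Cd68 and Cd5l) in each spot and its neighbours, a comparison added after the data had been seen. The highest of 10 equal parts was set against the lowest 5, with the section as a block. At 0 h, Abcc2 was called lower in phagocyte-rich spots (-0.26 ± 0.07, adjusted p = 0.0271), beside 3.19% of the 13680 genes tested that were called, and the call was lost without any single 0 h section (adjusted p 0.105 to 0.254). At 24 h, Slco1a1 (-0.59 ± 0.10) and Slco1a4 (-0.98 ± 0.34) were lower, beside 15.2%, of which Slco1a4 lost its call without the 24 h section B (-0.44, adjusted p = 0.599). At 36 h, 6 members were lower, beside 15.3%, from Slco1a4 (-0.87 ± 0.12) and Slco1a1 (-0.70 ± 0.09) to Abcg2 (-0.25 ± 0.10), and Abcc4 was higher (0.85 ± 0.20), beside 13.4%. Under total-count scaling, the calls of Slco1a4 at 24 h (-0.74) and of Abcc2 (-0.14) and Abcb1a (-0.51) at 36 h were lost, Abcg2 at 36 h turned to 0.04, and Slco1b2 at 0 h (-0.44) and Abcc4 at 24 h (0.60) passed. Without the 36 h section A, the Abcc4 call was lost (0.55, adjusted p = 0.225) and Abcb1a changed sign (0.08), and the Abcg2 call was lost in 6 of 11 such fits (adjusted p 0.0509 to 0.266).

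At 48 h, 7 members were lower in phagocyte-rich spots, beside 31% of the genes tested, and Abcc4 was higher, beside 34%. Slco1a4 had 28.8, 18.8, 21.1 and 12.9 CPM in the phagocyte-rich spots of sections A to D and 85.2, 66.2, 60.8 and 33.6 CPM in the phagocyte-poor spots (log2 -1.57 ± 0.08). Slco1a1 (-1.38 ± 0.07) and Slco1b2 (-1.36 ± 0.10) differed by similar steps, and the canalicular exporters by smaller ones (Abcb1a -0.80 ± 0.20, Abcc2 -0.70 ± 0.06 and Abcg2 -0.49 ± 0.06). Abcc3 differed least among the 7 (-0.26 ± 0.05). Under total-count scaling, which shifted the median of all genes from 0.03 to 0.47 in this contrast, Abcc3 turned to 0.18 and passed (adjusted p = 0.00239), and the calls of Abcb1a (-0.36) and Abcg2 (-0.05) were lost. Abcc4 had 17.1, 8.15, 16.2 and 8.79 CPM in the rich and 8.33, 4.13, 11.9 and 4.29 CPM in the poor spots, higher in 4 of 4 sections (0.83 ± 0.12). The call of Abcb1a was lost without the 48 h section A (-0.54, adjusted p = 0.0751).

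Set against the same contrast at 0 h, the phagocyte-rich minus phagocyte-poor difference was lower for Slco1a1 at 24 h (-0.42 ± 0.11), beside 5.8% of the genes tested, for Slco1a1 (-0.53) and Slco1a4 (-0.74) at 36 h, beside 6.97%, and for 5 members at 48 h, beside 18%. Those 5 were Slco1a4 (-1.44 ± 0.15), Slco1a1 (-1.21 ± 0.09), Slco1b2 (-0.90 ± 0.16), Abcc2 (-0.44 ± 0.09) and Abcg2 (-0.29 ± 0.10). Under total-count scaling, the Slco1a1 calls at 24 h (-0.20) and 36 h (-0.26) and the Abcc2 call at 48 h (-0.02) were lost and Abcg2 at 48 h turned to 0.12. The Slco1a1 call at 24 h was lost without 0 h section 2 or either 24 h section (-0.35 to -0.44, adjusted p 0.065 to 0.152), and the Abcg2 call at 48 h without 0 h section 2 or 48 h section A, C or D (-0.20 to -0.28, adjusted p 0.0555 to 0.131). The difference of Abcc4 did not change past the threshold (0.30 ± 0.29 at 48 h, 95% interval -0.27 to 0.88), but under total-count scaling its value at 48 h was 0.72 and passed (adjusted p = 0.0336). That scaling also called a higher difference for Abcc3 at all 3 times (0.31, 0.34 and 0.33) and for Abcc2 at 24 h (0.33). In the same spots, 5 of 5 hepatocyte markers were lower at each injured time, by -0.82 to -0.40 at 24 h, -0.74 to -0.48 at 36 h and -1.21 to -0.56 at 48 h on the log2 scale. Fewer hepatocytes per spot and less transporter RNA per hepatocyte cannot be told apart here.

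**Figure D4:**
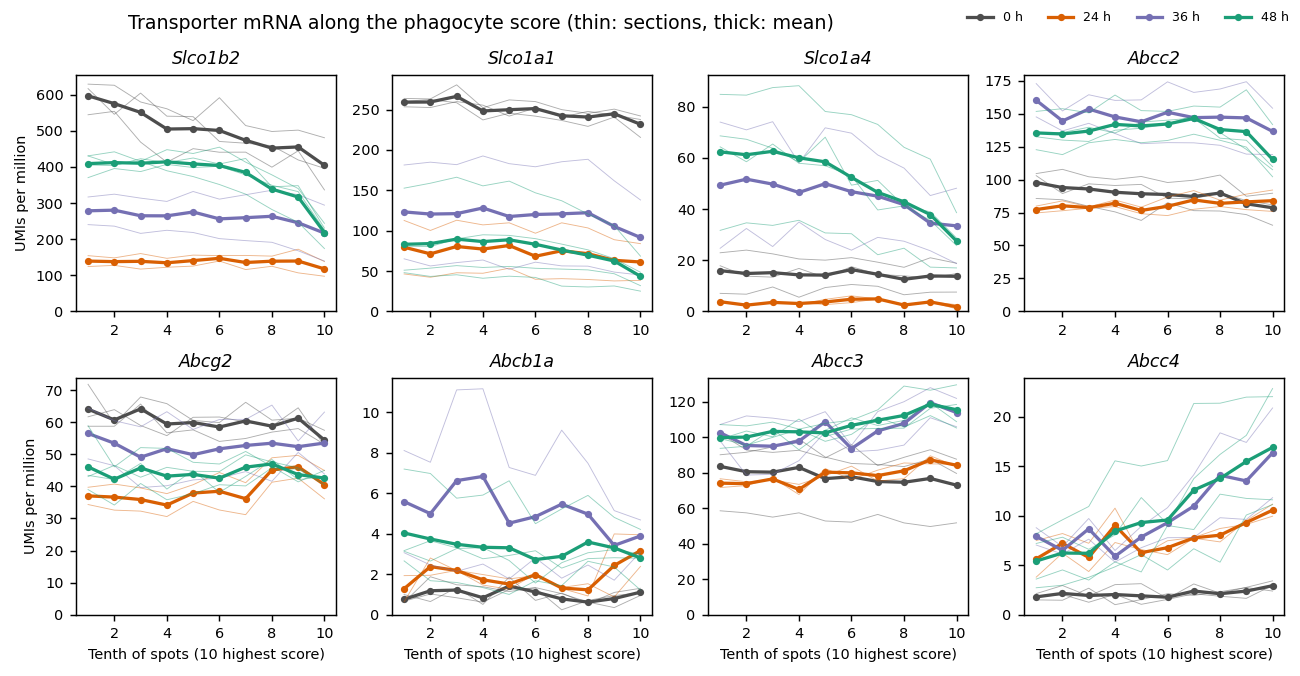
Levels of the transporters along the phagocyte score. The horizontal axis gives 10 equal parts of the spots of a section from the lowest to the highest phagocyte score, the vertical axis gives CPM without TMM scaling, thin lines are sections and thick lines are means of a time point. At 48 h the Slco1b2 mean stays between 385 and 414 over parts 1 to 7 and drops to 218 in part 10, whereas the Abcc4 mean climbs from 5.41 to 16.9.

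**Figure D5:**
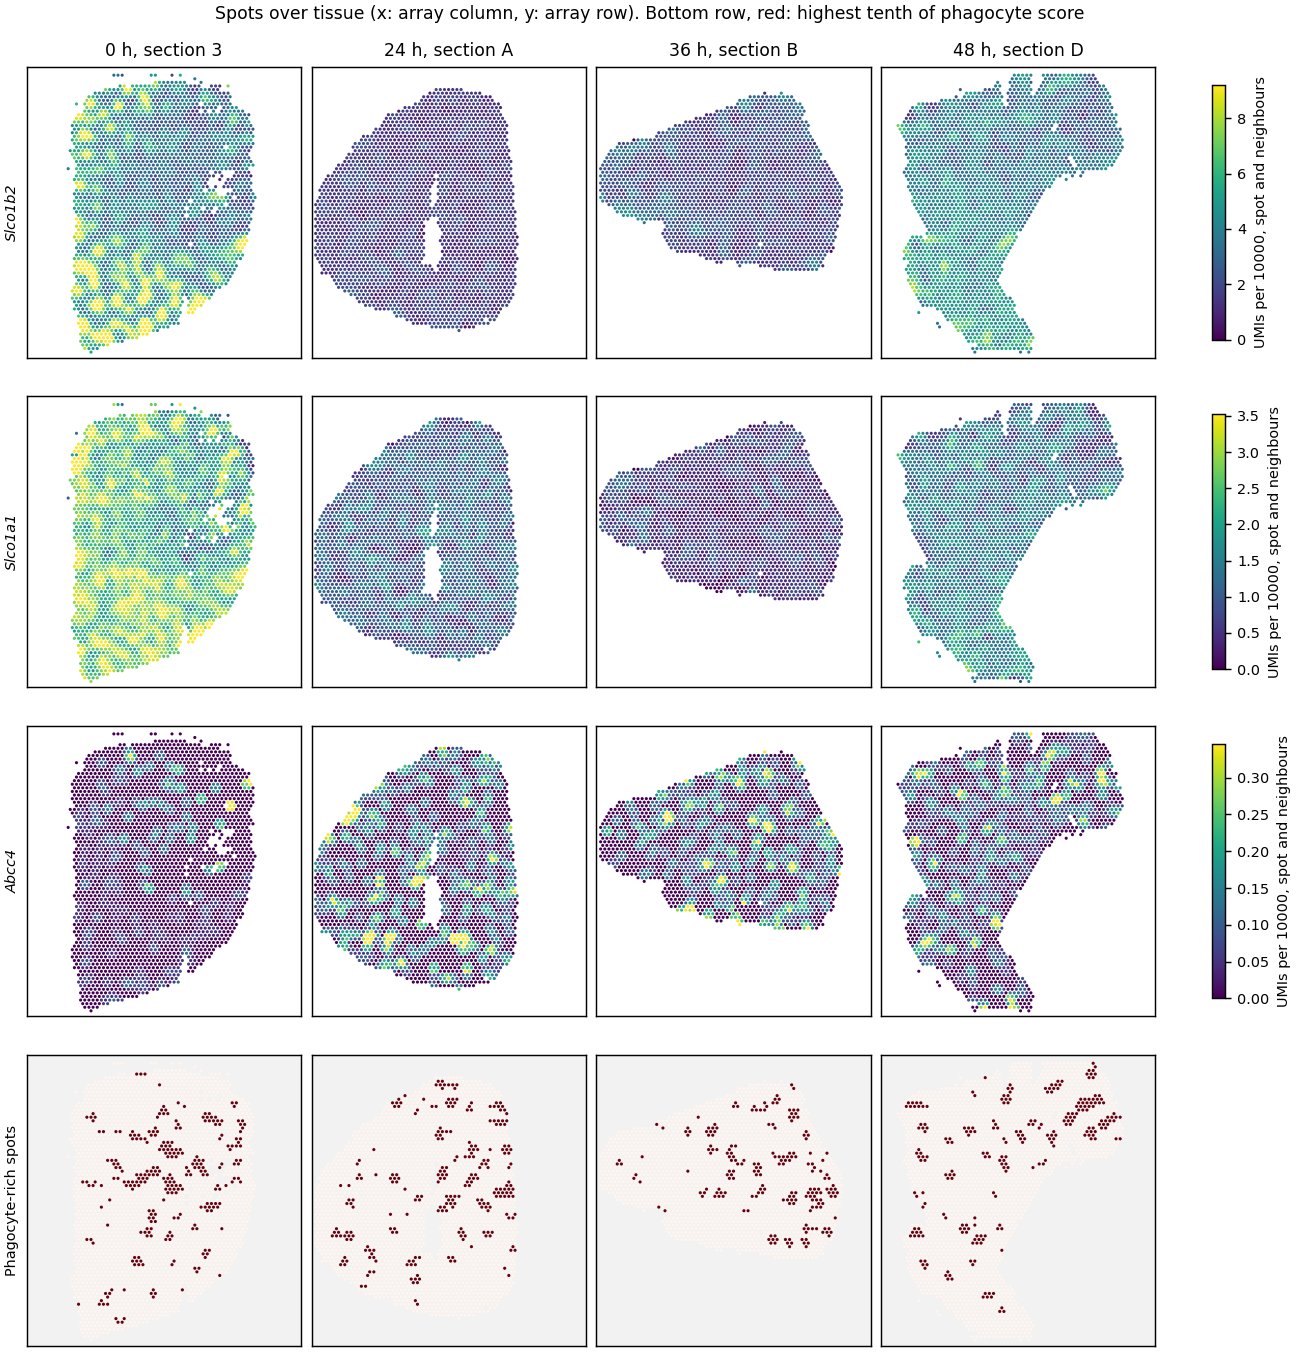
Maps of 1 section per time point (0 h section 3, 24 h section A, 36 h section B and 48 h section D). Axes are array columns and rows, each point is a spot, colour is UMIs per 10000 over a spot and its neighbours for Slco1b2, Slco1a1 and Abcc4, and red marks the phagocyte-rich spots in the lowest row. Slco1b2 shows a patterned field at 0 h that is pale at 24 h and partly refilled at 48 h.

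As a description only, since the genes share libraries and the sections share time points, likeness was measured by Pearson's r of log2 TMM CPM. The genes whose levels over the 11 sections were most like a member's were then listed. For Slco1b2 these were Sar1b (0.99), Hibadh (0.99) and Otc (0.98), for Slco1a1 Ces3a (0.99), Fabp1 (0.99) and Cyp2u1 (0.98), and for Slco1a4 Slc35b3 (0.99), Odf2l (0.96) and Sult1d1 (0.95). For Abcg2 they were Aamdc (0.99), AC154378.1 (0.98) and Asgr2 (0.98), for Abcc2 Gm16794 (0.96), Gm45051 (0.96) and Trpm7 (0.93), and for Abcb1a Gm839 (0.92), Mafg (0.91) and Arl14ep (0.91). For Abcc4 they were Cidea (0.95), Slc25a27 (0.94) and Ms4a14 (0.94). Abcc3, which was called at no time, had the lowest likeness to its nearest genes, 8430432A02Rik (0.88), Usb1 (0.86) and Rassf5 (0.84).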

How the data were processed

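Visium sections of mouse liver were taken at 0, 24, 36 and 48 h after APAP (3, 2, 2 and 4 sections). The deposited values are raw UMI counts per gene and spot, which the authors made with Space Ranger 1.0.0 against mm10, with Seurat 4.1.1 used downstream per the labels. Deposited spot positions and barcodes were also read, and image scale files were not used. All sections list the same 4992 barcodes, which are array positions and not shared cells.

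Within the tissue mask, a spot was used if it held at least 800 genes and no more than 20% of its UMIs were mitochondrial. The manual removal of spots described by the study was not repeated, and no doublet caller was run, since a spot may hold several cells. Counts were summed per section, or per section and class of spot, at 31292663 to 67045372 UMIs per section.

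Sums were scaled by TMM and tested with the edgeR quasi-likelihood test (edgeR 4.0.16, limma 3.58.1, R 4.3.3, robust, two-sided) after filterByExpr, in 1 fit of all 11 sections by time point (common biological coefficient of variation 0.194). Contrasts within sections used the section as a block and an effect per time point. P-values were adjusted by Benjamini-Hochberg over all genes tested, with 0.05 as threshold. The SE is the log2 fold change divided by the square root of F, and intervals are 95% normal intervals from it. Scores for zones, phagocytes and hepatocytes were made on spots thinned to 2000 UMIs. Zone and phagocyte markers were left out of the tests that they define, and far spots lie at least 3 grid steps from a spot low in hepatocyte markers. P-values and intervals cover the spread between sections only.

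DESeq2 1.42.0, total-count scaling, other filters, spot sets and zone definitions, the section letter as a block and leaving out each section were the alternatives. The fits were tested on simulated counts with 200 changed genes. For the simulated 24 h, 36 h and 48 h comparisons with 0 h (14565, 14564 and 14546 genes), 66, 58 and 92 of 109 genes changed by 1 on the log2 scale and 91 of 91 changed by 2 were recovered. False calls were 1 of 158, 10 of 159 and 7 of 190. They were 11 of 192 in a zone contrast and 14 of 200 in a phagocyte contrast. Genes as thinly captured as Abcb1a were not among those changed. Every gene had the same relative spread and no broad shift was simulated, so these cases were not tested. Python 3.11.15, numpy 2.4.6, pandas 2.3.3, scipy 1.17.1 and matplotlib 3.10.9 were used for the rest.

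The members and lists were chosen with earlier results of these data known, and the phagocyte comparison was added after the data had been seen. All 8 members were named in every comparison. Of each further list, the up to 3 called genes with the largest rise and the up to 3 with the largest fall against 0 h at a mean of at least 5 CPM in one of the groups could be named, and for each member the 3 genes with the highest r. Gene positions and transcript ends come from GENCODE for GRCm38 and promoters from RefSeq. The comparison of spots low in hepatocyte markers with far spots could not be made as planned, since too few sections had enough such spots. Some genes of these lists are counted but not reported here by name.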

Additional observations from a re-analysis of the deposited data

Results flagged for a closer look

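In the 48 h group, Abcc3 had 101 CPM in section A, whereas sections B, C and D lay within 90.8–91.6 CPM. The gap to the nearest of the others, as a share of the whole range, was over the 95% critical value for 4 samples, a rule that chance meets in about 1 of 20 groups.

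The contrast between central and portal spots differed between injured and uninjured liver, as tested by the interaction term of the edgeR fit. Central and portal are ranks within a section, and the central markers were lower in the central spots of every injured section than in those of 0 h. Relative to 0 h, the log2 difference of Slco1b2 changed by -1.27 at 24 h, -1.21 at 36 h and -1.61 at 48 h, that of Slco1a1 by -0.78, -0.65 and -0.93, and that of Slco1a4 by -0.35 at 36 h and -0.75 at 48 h. For the exporters, the change was -0.34, -0.69 and -0.67 for Abcc2 at 24 h, 36 h and 48 h, -0.36, -0.76 and -0.64 for Abcg2, and -0.23, -0.35 and -0.37 for Abcc3. The change of Abcc4 was 0.95 at 48 h. No cause of these changes was tested.

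The contrast between phagocyte-rich and phagocyte-poor spots was tested in the same way. The change from 0 h was -0.42 at 24 h, -0.53 at 36 h and -1.21 at 48 h for Slco1a1, and -0.74 at 36 h and -1.44 at 48 h for Slco1a4. At 48 h it was also -0.90 for Slco1b2, -0.44 for Abcc2 and -0.29 for Abcg2.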

How the results depend on the processing

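Of the 1284 recomputed values of log2 fold changes that had been called, 1165 kept their direction and their call, 111 kept the direction and lost the call, and 8 changed sign. Of the 1116 recomputed values that had not been called, 976 stayed so, 47 passed the threshold and 93 changed sign. Of the counts of called members, 273 stayed within 1.5 times the reported count, 11 were larger and 16 smaller. The cause of each change was not tested unless the alternative itself shows it. Depth limits Abcb1a and Abcc4 most, at 39 to 174 UMIs per 0 h section.

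The log2 values that changed sign, and the counts of called members that moved by over 1.5 times, were these. Under total-count scaling, which moves the median of all genes, the values were Abcc3 (0.0043) in 24 h against 0 h, Abcc3 (0.41) in 36 h against 0 h, Abcc3 (0.45) in 48 h against 0 h, Abcc3 (0.043) and Abcc4 (0.024) in 48 h against 36 h and Abcg2 (0.19) and Slco1a1 (0.071) in 48 h against 24 h. In the zones they became Slco1b2 (0.12) in the central against portal contrast at 24 h, Abcc2 (0.023) and Slco1b2 (0.17) in the central against portal contrast at 36 h, Abcc2 (0.12), Abcg2 (0.10) and Abcc3 (0.28) in the central against portal contrast at 48 h and Abcb1a (0.076) in the change of that contrast from 0 h to 36 h. In the phagocyte-rich spots they became Abcc2 (0.092), Abcg2 (0.16) and Abcc3 (0.16) in the phagocyte contrast at 24 h, Abcg2 (0.036) and Abcc3 (0.19) in the phagocyte contrast at 36 h, Abcc3 (0.18) in the phagocyte contrast at 48 h, Abcc4 (0.047) and Slco1b2 (0.21) in the change of the phagocyte contrast from 0 h to 24 h, Abcc2 (0.10), Abcg2 (0.21) and Slco1b2 (0.054) in the change of the phagocyte contrast from 0 h to 36 h and Abcg2 (0.12) and Abcc3 (0.33) in the change of the phagocyte contrast from 0 h to 48 h. The counts of called members under that scaling were 5 in place of 2 in the central against portal contrast at 24 h, 3 in place of 6 in the central against portal contrast at 36 h, 2 in place of 1 in the phagocyte contrast at 0 h, 4 in place of 7 in the phagocyte contrast at 36 h and 2 in place of 1 in the change of the phagocyte contrast from 0 h to 24 h. With DESeq2, Abcg2 (0.0078) in 48 h against 24 h changed sign, as did Abcg2 (0.0057) in 48 h against 24 h when only far spots were summed, and Abcg2 (0.033) in 48 h against 24 h with no filter on low counts. With only the 2 time points compared in the fit, fewer sections gave Abcg2 (0.0041) in 48 h against 24 h, and the count of called members was 0 in place of 3 in 36 h against 24 h. With only the phagocyte-poor spots summed, an alternative added after the data had been seen, the values were Abcc3 (0.0072) in 48 h against 36 h and Abcg2 (0.22) and Slco1a1 (0.10) in 48 h against 24 h. With zones of 4 equal parts, they were Abcc3 (0.0055) in the central against portal contrast at 48 h and Abcb1a (-0.0011) in the change of that contrast from 0 h to 48 h. With the study's zone lists without Slco1b2, they were Abcb1a (-0.021) and Slco1b2 (0.0074) in the central against portal contrast at 24 h, Abcc3 (-0.058) and Slco1b2 (0.039) in the central against portal contrast at 36 h, Slco1a4 (0.042) in the change of that contrast from 0 h to 24 h and Abcb1a (0.15) in the change of that contrast from 0 h to 36 h, and the counts were 5 in place of 2 in the central against portal contrast at 24 h and 3 in place of 5 in the change of that contrast from 0 h to 24 h. Without thinning before scoring, they were Abcb1a (-0.056) in the central against portal contrast at 24 h, Slco1a4 (0.066) in the change of that contrast from 0 h to 24 h and Abcb1a (-0.14) in the change of that contrast from 0 h to 48 h, and the count was 4 in place of 2 in the central against portal contrast at 24 h.

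When 1 section was left out in turn, values changed sign for Abcc3 (-0.24 to 0.10) in 36 h against 0 h, Abcc2 (-0.010 to 0.17) and Abcc3 (-0.28 to 0.059) in 48 h against 0 h, Abcc4 (-0.0092 to 0.62) and Slco1a1 (-0.45 to 1.27) in 36 h against 24 h, Abcb1a (-1.28 to 0.36), Abcc3 (-0.15 to 0.060), Abcc4 (-0.34 to 0.26), Slco1a1 (-1.26 to 0.33) and Slco1a4 (-0.42 to 0.88) in 48 h against 36 h and Abcc4 (-0.027 to 0.44), Abcg2 (-0.13 to 0.12) and Slco1a1 (-0.59 to 0.60) in 48 h against 24 h. In the zones this held for Abcc4 (-0.024 to 0.32) in the central against portal contrast at 0 h, Slco1b2 (-0.24 to 0.039) in the central against portal contrast at 24 h, Abcb1a (-1.17 to 0.23), Abcc3 (-0.040 to 0.071) and Slco1b2 (-0.14 to 0.059) in the central against portal contrast at 36 h, Abcc3 (-0.073 to 0.012) in the central against portal contrast at 48 h, Abcb1a (-0.54 to 0.86) and Abcc4 (-0.11 to 1.30) in the change of that contrast from 0 h to 36 h and Abcb1a (-0.054 to 0.32) in the change of that contrast from 0 h to 48 h. In the phagocyte-rich spots it held for Abcb1a (-0.20 to 0.28) in the phagocyte contrast at 0 h, Abcc2 (-0.33 to 0.025) and Abcg2 (-0.18 to 0.027) in the phagocyte contrast at 24 h, Abcb1a (-1.23 to 0.083) in the phagocyte contrast at 36 h, Abcc2 (-0.056 to 0.30), Abcc4 (-0.34 to 0.17) and Slco1b2 (-0.18 to 0.17) in the change of the phagocyte contrast from 0 h to 24 h and Abcb1a (-1.19 to 0.13) and Slco1b2 (-0.52 to 0.077) in the change of the phagocyte contrast from 0 h to 36 h. The counts of called members ranged from 3 to 7 in 24 h against 0 h, 0 to 5 in 36 h against 24 h, 0 to 1 in 48 h against 36 h, 2 to 4 in the central against portal contrast at 24 h, 2 to 6 in the change of that contrast from 0 h to 24 h, 0 to 2 in the phagocyte contrast at 0 h, 1 to 3 in the phagocyte contrast at 24 h, 4 to 7 in the phagocyte contrast at 36 h and 0 to 1 in the change of the phagocyte contrast from 0 h to 24 h. Without the 36 h section B, Abcb1a (1.91) and Abcg2 (0.54) also passed for 36 h against 24 h and Abcg2 for 48 h against 36 h (-0.52), and without the 24 h section B, Abcc2 (0.28) and Abcc3 (0.25) also passed in the central against portal contrast at 24 h.

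The letters A and B are shared by the titles of the 24 h, 36 h and 48 h sections, but sections of the same letter deviated together in 1 of the 3 pairs of time points only (r of the A minus B difference over 14821 genes 0.37 for 24 h and 36 h, -0.21 for 24 h and 48 h, and -0.10 for 36 h and 48 h), so the letters were not taken to pair sections. With the letter as a replicate block, 36 h against 24 h had 3 called members, 48 h against 36 h had 0 and 48 h against 24 h had 3, as without it, and the uncalled value of Abcc4 for 48 h against 24 h changed sign (-0.016). The planned comparison of spots low in hepatocyte markers with far spots could not be made, because 1 injured section had at least 20 spots in each class, and 3 with the 5th percentile as the limit.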

Other observations

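In spots with a low score over the hepatocyte markers and Cyp2e1, the 3 uptake carriers were lower and Abcc4 was higher than in far spots. With Cyp2e1 added to the hepatocyte list, as in the marker table of the study, 5 injured sections (24 h A and 48 h A to D) had at least 20 spots in each class, so spots low in hepatocyte markers were compared with far spots in these 5 sections, a choice of sections made after the data had been seen. Slco1a1 (log2 -1.92 ± 0.12), Slco1a4 (-1.92 ± 0.13) and Slco1b2 (-1.89 ± 0.11) were lower in the low spots, as were Abcc2 (-1.01 ± 0.11), Abcg2 (-0.52 ± 0.09) and Abcc3 (-0.35 ± 0.08), and Abcc4 was higher (0.50 ± 0.14, adjusted p = 0.003, edgeR), beside 59.1% of the 12193 genes tested that were called in either direction. When 1 section was left out, the Abcc4 value ranged from 0.41 to 0.76, with an adjusted p of up to 0.0508. Under total-count scaling, the uptake carriers kept their fall (-1.43 for Slco1a1, -1.42 for Slco1a4 and -1.41 for Slco1b2), Abcg2 (-0.02) and Abcc3 (0.14) were not called and Abcc4 stood at 1.0.

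In the spots that touched the low spots, Abcc4 was also higher than in far spots (0.46 ± 0.10), and Slco1a4 (-0.78 ± 0.08), Slco1a1 (-0.57 ± 0.07) and Slco1b2 (-0.40 ± 0.09) were lower, as were Abcb1a (-0.62 ± 0.20) and Abcg2 (-0.18 ± 0.06), beside 39.1% of genes called. Under total-count scaling, the calls of Slco1b2 (-0.17, adjusted p = 0.0848), Abcb1a (-0.39) and Abcg2 (0.05) were lost and Abcc3 was called higher (0.15). With 1 section left out in turn, the Abcb1a call was lost without the 48 h section A (adjusted p = 0.192, edgeR) or C (0.0677). That of Abcg2 was lost without the 48 h section B (0.074), C (0.142) or D (0.176). The calls of Abcc4 and the 3 uptake carriers were kept in each of these fits. The low spots were chosen by hepatocyte markers and Cyp2e1, which is also one of the central vein markers of the zones. Adding Cyp2e1 raised the low spots from 1 to 20 in the 24 h section A. In the 48 h sections A to D they rose from 18, 3, 29 and 5 to 102, 25, 154 and 52. Fewer hepatocytes, less transporter RNA per hepatocyte, and zone or loss of Cyp2e1 therefore cannot be told apart in them.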
